A study of Homo sapiens with 6 samples.

Results

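Aminoacyl-tRNA synthetases couple each amino acid to its tRNA, and the genes of this family were compared between PC-3 cells with and without an inducible tristetraprolin (TTP) transgene. The family as taken here holds 39 genes of the 22933 gene symbols in the deposited table: 21 cytosolic enzymes, 16 mitochondrial enzymes and 2 scaffold proteins, AIMP1 and AIMP2. The genes were chosen by name, with earlier results of these data known, and all 39 were found. Where a symbol stood in several rows of the table, the row with the most RefSeq names was used and then the row with the highest level. PC-3 cells are a long-established line from a bone metastasis of prostate adenocarcinoma. All cells carried the rtTA2 transactivator from a pRetroX-Tet-On-Advanced retrovirus and were selected in G418. A further retrovirus gave the tdTom group pRetroX-Tight-pPGK-tdTomato and the TTP-tdTom group pRetroX-Tight-TTP-pPGK-tdTomato, so that the Dox-dependent Tight promoter drives TTP and the PGK promoter drives tdTomato. Both groups were then enriched for tdTom-positive cells on a flow sorter. Doxycycline (Dox) at 300 ng/ml was given to both groups, with 3 samples each, over the last 4 hours, and no group was left without Dox.

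The table gives 1 expression value per gene and group, in FPKM (fragments per kilobase of transcript, scaled to the number of mapped fragments), which combines the 3 samples. No spread between samples and no achieved sequencing depth can be read from these values, and the authors' own test columns were not used. The ratios below are therefore given without an error and were not tested here. They are set beside the same ratios over all gene symbols. A symbol was included when its FPKM was at least 1 in either group, which left 13320 symbols and all 39 members. Of these symbols, 316 were listed at 0 in one group and have no finite ratio, so medians and percentiles over all symbols rest on the other 13004, whereas counts past a ratio use all 13320. ZFP36, the gene that encodes TTP, had an FPKM of 5.56 in tdTom cells against 5.54 in TTP-tdTom cells, so the group labelled TTP-tdTom showed no higher level at this locus. Whether transgene fragments were counted there was not analysed here, and every direction below is that of the labels. Of 5 epithelial markers, KRT8, KRT18, KRT19 and EPCAM lay between 15.1 and 98.2 FPKM in the tdTom group, whereas CDH1 was at 0.119. The FPKM of the epithelial markers summed to 195 in each group. The 5 prostate luminal markers summed to 4.68 in tdTom cells against 5.72 in TTP-tdTom cells. The 6 blood, endothelial and fibroblast markers summed to 5.65 and 7.71, most of it from COL1A1 at 4.34 and 4.56, and COL1A2 was listed at 0 in tdTom cells against 1.38 in TTP-tdTom cells. The part of these markers in the results was not tested.

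Each synthetase activates its amino acid with ATP and transfers it to the matching tRNA, which fixes the meaning of the genetic code. Cytosol and mitochondria translate separately, and most amino acids therefore have a cytosolic enzyme and a mitochondrial enzyme encoded by different nuclear genes, the latter marked by the suffix 2. GARS and KARS encode the enzyme of both compartments, EPRS joins the glutamyl and prolyl enzymes in one chain, and no separate mitochondrial glutaminyl enzyme exists. Several cytosolic enzymes assemble with scaffold proteins into the multi-synthetase complex. Many cytosolic synthetase genes are known targets of ATF4, the transcription factor of the amino acid response.

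Most synthetase transcripts had a similar level in the TTP-tdTom and tdTom groups, and the one large difference was in DARS. DARS, the cytosolic aspartyl-tRNA synthetase, had an FPKM of 39.5 in tdTom cells against 17.6 in TTP-tdTom cells, which is 2.25-fold lower. With it, the mitochondrial methionyl enzyme MARS2 and the mitochondrial isoleucyl enzyme IARS2 were the members that passed a ratio of 1.5 downward, and 0 members passed it upward. Of all 13320 symbols, 23.4% were past 1.5-fold lower and 5.08% past 1.5-fold higher, against 3 and 0 of the 39 members. DARS alone was past 2-fold lower, where the background was 9.54%, and 0 members were past 2-fold higher, where it was 3.67%. At a log2 difference of 0.32, 12 members were lower and 1 was higher, beside 40.5% and 8.05% of all symbols. The 3 members past 1.5-fold lower are 7.69% of the family, and this share was not tested against the background.

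The median log2 ratio of TTP-tdTom over tdTom was -0.19 over the members and -0.23 over the 13004 symbols with a finite ratio. The 25th to 75th percentile ran from -0.35 to -0.03 in the members and from -0.54 to -0.03 over all symbols. The 10th percentile was -0.53 in the members and -0.95 over all symbols. The ratio was below 0 in 31 members and above 0 in 8, but after centring on the median of all symbols 16 were below 0 and 23 above.

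**Figure D1:**
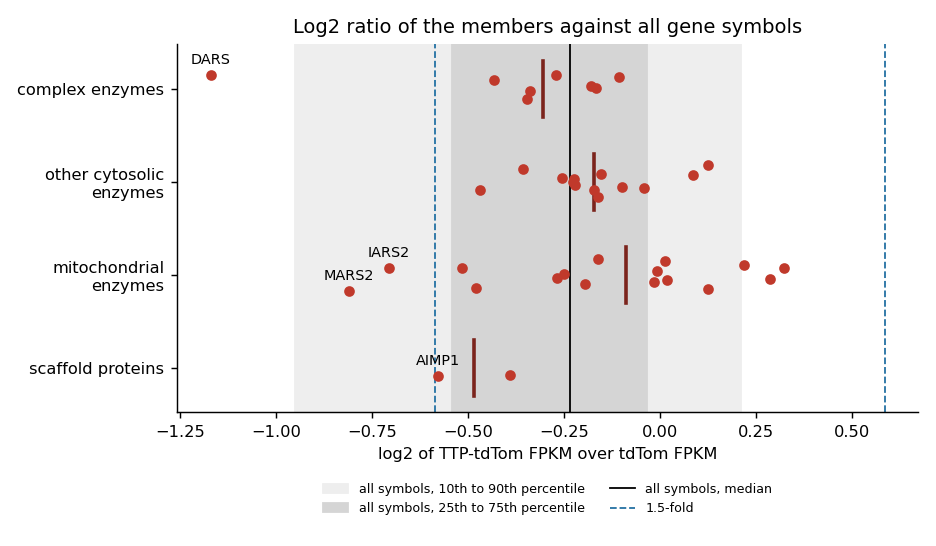
Log2 ratio of TTP-tdTom FPKM over tdTom FPKM (x axis) for each of the 39 members, as red points by list, with the list's median as a dark red bar. Grey bands and the black line give the percentiles and the median of the 13004 gene symbols with a finite ratio, and DARS at -1.17 lies to the left of the 10th percentile of -0.95.

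DARS lies on chromosome 2 of GRCh37 from 136664148 to 136743222. Its log2 ratio of -1.17 left 44.4% of the tdTom level in the TTP-tdTom group, and 5.28% of all symbols had a lower ratio. DARS was the only member below the 10th percentile of all symbols, which was -0.95, while TARS2, SARS2 and PARS2 lay above the 90th percentile, which was 0.21.

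MARS2 lies on chromosome 2 from 198569984 to 198575244. Its FPKM was 5.70 in tdTom cells against 3.25 in TTP-tdTom cells, a log2 ratio of -0.81 that left 57.0% of the tdTom level. IARS2, on chromosome 1, had an FPKM of 18.5 and 11.3 and a log2 ratio of -0.71. Its assembled locus, from 220046619 to 220321383, also holds EPRS in a row of its own. Of all symbols 13.9% had a lower ratio than MARS2 and 17.7% a lower ratio than IARS2, so both lay inside the 10th to 90th percentile of all symbols. After centring on the median of all symbols the log2 ratios were -0.94 for DARS, -0.58 for MARS2 and -0.47 for IARS2, and only DARS remained past 1.5-fold.

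The multi-synthetase complex was described by its 8 enzyme genes and its scaffold genes. All 8 enzymes had a log2 ratio below 0, as had 77.7% of all symbols, with a median of -0.30, against -0.17 over the other 13 cytosolic enzymes. The medians differed by less than the range within either list, and 3 of the 8 lay above the median of all symbols. IARS, the isoleucyl enzyme, had an FPKM of 29.2 in tdTom cells against 21.6 in TTP-tdTom cells. MARS, the methionyl enzyme, had 18.8 and 14.8, and EPRS had 56.1 and 44.3. These 3 genes were between 1.26-fold and 1.35-fold lower. The assembled locus of MARS covers the same interval as that of DDIT3, which has a row of its own.

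KARS, the lysyl enzyme, was at 72.5 FPKM in tdTom cells against 60.1 in TTP-tdTom cells. LARS, the leucyl enzyme that also senses leucine for mTORC1, was at 34.7 and 30.6. QARS was at 19.6 and 17.4. RARS, the arginyl enzyme, had the smallest difference of the complex, with 50.0 and 46.5 and a log2 ratio of -0.11. Among the 8 enzymes, the tdTom levels ranged from 18.8 to 72.5 FPKM, and the lowest ratio after DARS was that of IARS at -0.43.

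AIMP1, which holds the complex together and is also released as the cytokine precursor p43, had an FPKM of 15.5 in tdTom cells against 10.4 in TTP-tdTom cells. At 1.49-fold lower it stopped just short of the ratio of 1.5. AIMP2, the scaffold that binds the lysyl enzyme, had 4.54 and 3.46 and a log2 ratio of -0.39. The third scaffold gene, EEF1E1, was at 137 and 75.9 FPKM with a log2 ratio of -0.86, but its row also carries TXNDC5 and MUTED, so that this level cannot be given to EEF1E1 alone. Both AIMP genes were lower than the median of all symbols, and so was the EEF1E1 row.

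All of the other 13 cytosolic enzymes were within 1.5-fold between the groups. GARS, the glycyl enzyme, had the highest level of the family, with an FPKM of 146 in tdTom cells against 123 in TTP-tdTom cells. FARSA, the alpha subunit of the phenylalanyl enzyme, followed with 82.6 and 64.5. FARSB, the beta subunit, had a lower level of 19.9 and 17.0. The log2 ratio was -0.36 for the alpha subunit and -0.23 for the beta subunit, which form one enzyme.

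NARS, the asparaginyl enzyme, had 66.0 FPKM in tdTom cells against 47.7 in TTP-tdTom cells. Its log2 ratio of -0.47 was the lowest of the 13 cytosolic enzymes outside the complex. VARS, the valyl enzyme, had 48.5 and 41.6. TARS, the threonyl enzyme, had 48.4 and 43.0, while its relative TARSL2 was expressed at 2.13 and 2.07. WARS, the tryptophanyl enzyme that interferons induce, had 31.0 and 27.8. These last 4 genes had log2 ratios between -0.22 and -0.04.

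HARS, the histidyl enzyme, was at 17.8 FPKM in tdTom cells against 15.2 in TTP-tdTom cells. YARS, the tyrosyl enzyme, was at 17.8 and 16.6. CARS, the cysteinyl enzyme, was at 13.9 and 12.4. SARS and AARS, for serine and alanine, were the cytosolic enzymes with a higher level in the TTP-tdTom group. SARS had 20.8 in tdTom cells against 22.1 in TTP-tdTom cells. AARS had 16.7 and 18.2, from a row that also carries EXOSC6, so that its level is shared with that gene.

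**Figure D2:**
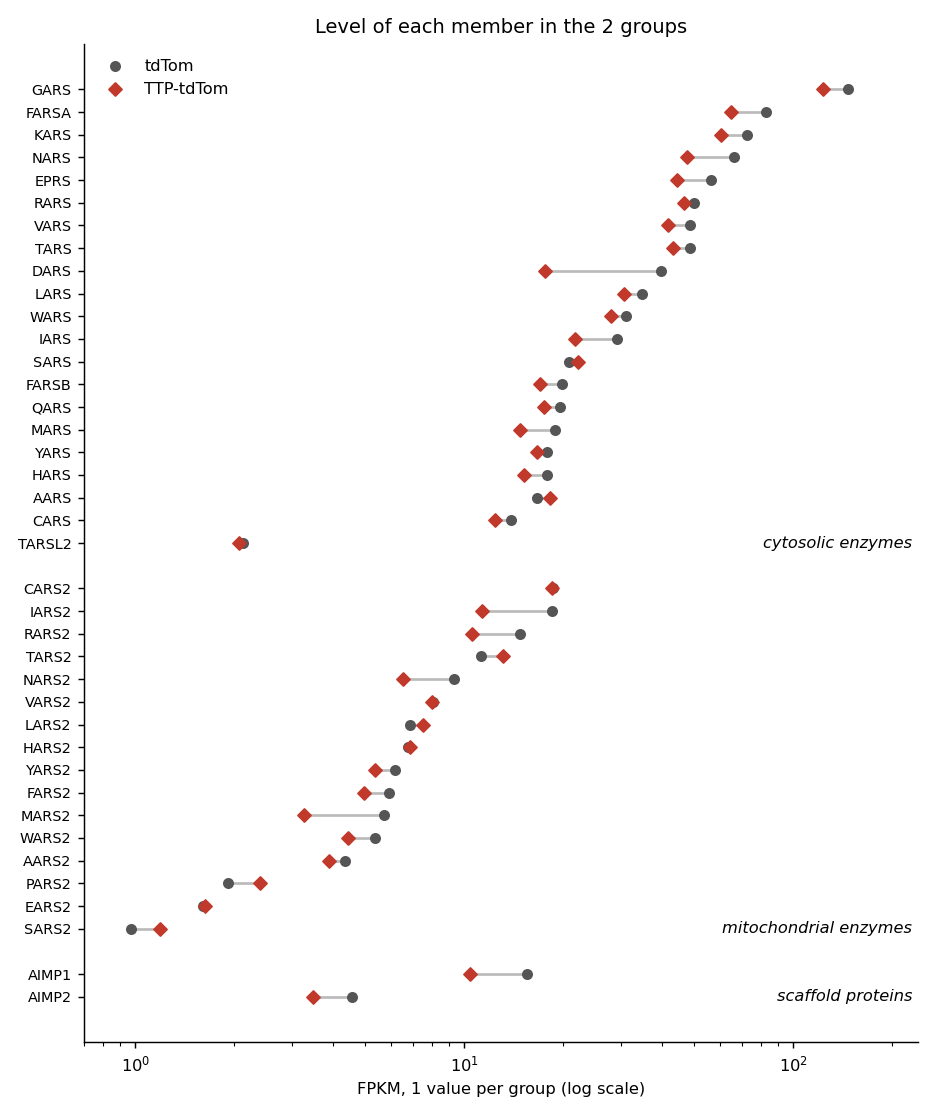
FPKM of each of the 39 members (x axis, log scale), with 1 value for the tdTom group (grey circle) and 1 for the TTP-tdTom group (red diamond), ordered by tdTom level within each list. The longest line belongs to DARS, from 39.5 to 17.6 FPKM, and most cytosolic enzymes sit above most mitochondrial enzymes.

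The mitochondrial enzymes had lower levels, and their ratios lay on both sides of 0. Their median tdTom FPKM was 6.44, against 31.0 for the cytosolic enzymes, and their median log2 ratio was -0.09, against -0.22. With a minimum of 5 FPKM both medians were -0.22, so the gap rests on the mitochondrial genes of low level. Of the 16, 10 were below 0 and 6 above. Ratios ran from -0.81 for MARS2 to 0.32 for PARS2, the prolyl enzyme, which had an FPKM of 1.91 in tdTom cells against 2.40 in TTP-tdTom cells. PARS2 was the only member higher by a log2 difference of at least 0.32. The 4 lowest ratios were those of MARS2, IARS2, NARS2 and RARS2. NARS2 had an FPKM of 9.30 in tdTom cells against 6.50 in TTP-tdTom cells, and RARS2 had 14.7 and 10.6.

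At the other end, SARS2 was at 0.973 FPKM in tdTom cells against 1.19 in TTP-tdTom cells, the lowest level of the family. TARS2 was at 11.3 and 13.1, and LARS2 at 6.85 and 7.48. HARS2 was at 6.75 and 6.83. These genes had log2 ratios between 0.02 and 0.29 and were all within a log2 difference of 0.32. The assembled locus of HARS2 covers the same interval as that of HARS. VARS2 showed the smallest difference of all members, with 8.04 and 8.002 FPKM and a log2 ratio of -0.01. EARS2, the glutamyl enzyme, was at 1.61 and 1.63, and CARS2 was at 18.6 and 18.4, the highest tdTom level of the mitochondrial enzymes. The remaining mitochondrial enzymes had log2 ratios between -0.27 and -0.16. WARS2 was at 5.36 FPKM in tdTom cells against 4.45 in TTP-tdTom cells, and FARS2 was at 5.90 and 4.96. YARS2 was at 6.14 and 5.36. AARS2 was at 4.33 and 3.87, in a row that also carries TCTE1.

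Enzymes for the same amino acid could be compared across the compartments in 14 pairs of members. In 13 of the 14 the cytosolic enzyme had the higher tdTom FPKM, and CARS2 exceeded CARS as the exception. Over all 14 pairs the cytosolic enzyme had a median of 4.07 times the tdTom level of its partner. The mitochondrial enzyme had the lower log2 ratio in 7 pairs and the cytosolic enzyme in the other 7. Among pairs with the mitochondrial enzyme lower, the widest gap was that of MARS2 minus MARS, at -0.46 on the log2 scale, and in the other direction that of TARS2 minus TARS, at 0.39. The asparaginyl enzymes had close log2 ratios of -0.47 for NARS and -0.52 for NARS2, and the isoleucyl enzymes were both lower, at -0.43 and -0.71. Both partners were below 0 in 9 pairs, where 77.7% of all single symbols were below 0. Across the 14 pairs the log2 ratios had Pearson's r 0.587 and Spearman's rho 0.429, given as a description over genes that share the same libraries.

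**Figure D3:**
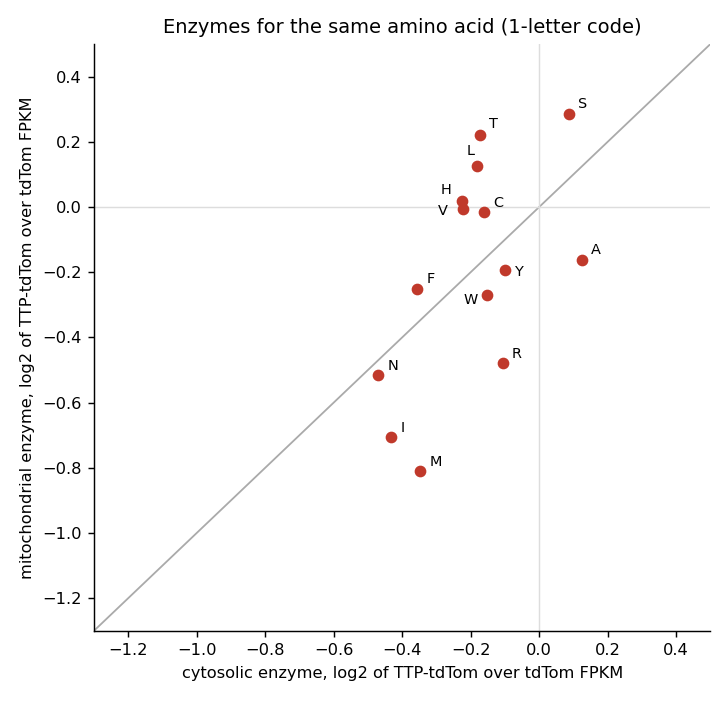
Log2 ratio of TTP-tdTom over tdTom FPKM for the cytosolic (x axis) and the mitochondrial enzyme (y axis) of the same amino acid, each point named by the letter of its amino acid, with FARSA for F. The grey diagonal marks equal ratios, and 7 of the 14 pairs lie below it, with the mitochondrial enzyme lower.

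Synthetases fall into 2 structural classes that bind ATP with unrelated folds. The 18 class I enzymes had a median log2 ratio of -0.17 and the 18 class II enzymes one of -0.20, with EPRS left out because it holds a domain of each. Class I held 2 of the members past 1.5-fold lower, IARS2 and MARS2, and class II held DARS. These are 11.1% of class I and 5.56% of class II, beside 23.4% of all symbols. The levels were also alike, with a median tdTom FPKM of 18.2 in class I and 17.2 in class II. The ranges of the classes overlapped over most of their length, from -0.81 to 0.13 in class I and from -1.17 to 0.32 in class II.

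TTP is known to bind AU-rich elements in the 3′UTR of mRNAs, with UAUUUAU as a core heptamer, and the 3′UTRs of the members were therefore searched for it. All 39 members had a coding transcript with a 3′UTR in GENCODE release 29, and the longest 3′UTR was taken. Matches were sought on the mRNA strand only and are written here as DNA, with TATTTAT for the heptamer and ATTTA for the pentamer it contains. The heptamer was present in 5 of the 39 members, or 12.8%, against 36.3% of the 11051 symbols with such a transcript. The pentamer was present in 18 members, or 46.2%, against 74.0%. The members' 3′UTRs were also shorter, with a median of 639 bases against 1393.

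The heptamer sites of the 5 members are shown because they are the only matches of the family, each 30 bases long with the heptamer in capitals, 5′ to 3′ on the mRNA strand. The base given is where the motif starts, counted from the first base after the stop codon, and the coordinates are those of the 30 bases in GRCh38, the build of GENCODE, all within a 3′UTR exon.
AIMP1, base 1345 of the 3′UTR, chr4:106349026-106349055, plus strand: gaattaaatttTATTTATttaaatccatgg
EARS2, base 1690, chr16:23522663-23522692, minus strand: agtagacaataTATTTATtttgtccagggg
FARSA, base 79, chr19:12922651-12922680, minus strand: cagtgaccttgTATTTATgaggcctctgtg
TARS, base 448, chr5:33468145-33468174, plus strand: atgtggttcagTATTTATctttacagtttt
WARS2, base 1093, chr1:119032249-119032278, minus strand: ttgacctgattTATTTATtgtacaagagcc

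Of the 5 genes with a heptamer, 0 were past 1.5-fold lower, beside 23.4% of all symbols, counted with or without the heptamer. Their log2 ratios were -0.58 for AIMP1, -0.36 for FARSA, -0.27 for WARS2, -0.17 for TARS and 0.01 for EARS2, a median of -0.27, against -0.19 over the 34 members without one. Over all symbols the medians were -0.44 with the heptamer and -0.17 without it. DARS, MARS2 and IARS2 had 0 heptamers. MARS2 had 6 pentamers in a 3′UTR of 1200 bases and IARS2 had 3 in 406 bases, while DARS had 0 pentamers in 639 bases. No match says only that these letters are absent from the 3′UTR searched.

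The pentamer sites of IARS2 and the first of MARS2 are shown as the nearest matches in members past 1.5-fold lower, with ATTTA in capitals and the same conventions.
IARS2, base 63, chr1:220147686-220147715, plus strand: tttggatggattATTTAcaatataggaaag
IARS2, base 90, chr1:220147713-220147742, plus strand: aagaaagccaagATTTAggtaatgagtgga
IARS2, base 362, chr1:220147985-220148014, plus strand: ttttgactctgtATTTAaattctatgatac
MARS2, base 528, chr2:197707703-197707732, plus strand: atgtgtatccccATTTAaattcctacaact

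The log2 ratios of the members varied with the base composition of their 3′UTRs, and members with AU-rich 3′UTRs had the lower ratios. Across the 39 members the log2 ratio and the GC content of the 3′UTR had Pearson's r 0.676 and Spearman's rho 0.667, and across the 11051 symbols 0.331 and 0.472. Without the 3 members past 1.5-fold, r was 0.625 and rho 0.588 over the remaining 36. These are descriptions across genes of the same libraries, which are not independent replicates. In the 16 mitochondrial enzymes r was 0.861 and rho 0.782. In the 21 cytosolic enzymes r was 0.466 and rho 0.343, the latter below the 0.472 over all symbols. The difference between these lists was not tested. The GC content of the whole transcript gave an r of 0.507 over the members.

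When all symbols were divided into 5 equal groups by 3′UTR GC content, 9 members lay in the lowest group, with up to 34.4%. They were AIMP1, AIMP2, DARS, EPRS, IARS2, MARS2, NARS, NARS2 and RARS2, and their median log2 ratio was -0.52, against -0.63 over all symbols of that group, of which 53.2% were past 1.5-fold lower. DARS had a 3′UTR GC content of 28.95%, and MARS2 and IARS2 had 33.8% and 31.8%, so all members past 1.5-fold lower came from this group. RARS2 had the lowest content, 25.7%, but over a 3′UTR of 35 bases. In the next group, with 6 members, the median was -0.22 against -0.42 over all symbols. The 15 members of the fourth group had a median of -0.02 and all symbols there one of -0.12. In the third group the median was -0.21 over its 6 members and -0.22 over all symbols. In the highest group it was -0.22 over 3 members, FARSA, SARS2 and VARS, and -0.09 over all symbols, so that these members did not follow the order of the other groups. Outside the lowest group 0 of the 30 members were past 1.5-fold lower, where the shares over all symbols were 35.7%, 16.7%, 6.70% and 3.71% from the second group to the highest.

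**Figure D4:**
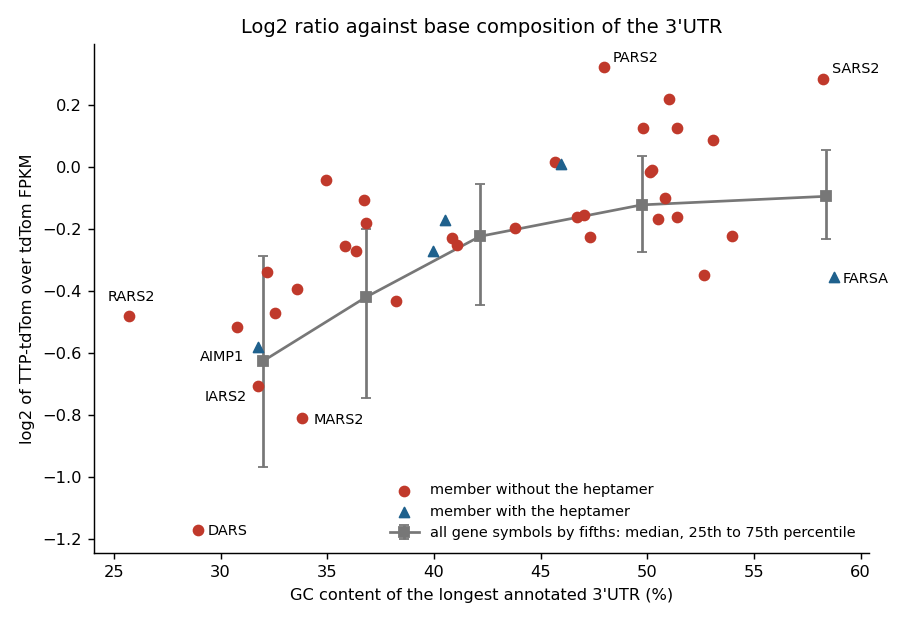
Log2 ratio of TTP-tdTom over tdTom FPKM (y axis) against the GC content of the longest annotated 3′UTR in percent (x axis) for the 39 members, with blue triangles for the 5 that hold the heptamer. Grey squares and bars give the median and the 25th to 75th percentile of all symbols in 5 equal groups by GC content, from a median of -0.63 in the lowest to -0.09 in the highest.

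Other genes of tRNA use were taken from 5 lists drawn up by function, and their counts stand beside the 23.4% of all symbols past 1.5-fold lower and the 5.08% higher. Of 16 genes that assist tRNA charging, 3 were past 1.5-fold lower and 1 higher, with a median log2 ratio of -0.25. The lower ones were the row of EEF1E1, SEPSECS, the enzyme that makes selenocysteyl-tRNA, with an FPKM of 2.32 in tdTom cells against 1.33 in TTP-tdTom cells, and C14orf126, with a log2 ratio of -0.59. XPOT, which exports tRNA from the nucleus, had a log2 ratio of -0.33.

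Of the 12 cytosolic elongation and release factors, 1 was past 1.5-fold lower, or 8.33% against 23.4% of all symbols. It was EIF5A2, the less abundant form of the translation factor eIF5A, with 10.8 FPKM in tdTom cells against 4.54 in TTP-tdTom cells. The release factor genes ETF1 and GSPT1 had log2 ratios of -0.41 and -0.30. EEF1A1, the factor that delivers charged tRNA to the ribosome, had a log2 ratio of -0.16. The median of the list was -0.19, as in the synthetases.

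Of the 10 mitochondrial translation factors, 2 were past 1.5-fold lower, which at 20% is near the 23.4% of all symbols. Both are elongation factors G. GFM1, which moves the ribosome along the mRNA, had 17.996 FPKM in tdTom cells against 9.18 in TTP-tdTom cells. GFM2, which recycles the ribosome, had 11.99 and 7.29. MTRF1 had a log2 ratio of -0.49, and TUFM, the mitochondrial counterpart of EEF1A1, was at -0.06. The median was -0.24, and the remaining 8 factors were within 1.5-fold.

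Of 39 tRNA processing and modification genes, 37 passed the FPKM minimum, 2 were past 1.5-fold lower and 0 higher, or 5.41% lower against 23.4% of all symbols. NSUN2, a methyltransferase that places 5-methylcytosine in tRNA, had 20.6 FPKM in tdTom cells against 10.4 in TTP-tdTom cells. TRIT1, which isopentenylates tRNA, was 1.48-fold lower. The median log2 ratio of the list was -0.21.

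The amino acid response genes had the widest spread of the 5 lists. Of 27 genes, 26 passed the FPKM minimum, 6 were past 1.5-fold lower and 2 higher, beside 23.4% and 5.08% of all symbols. SLC7A11, the cystine transporter subunit, had the lowest ratio, with an FPKM of 6.59 in tdTom cells against 2.201 in TTP-tdTom cells. PSAT1, of serine synthesis, had 9.22 and 4.06, and MTHFD2, of mitochondrial folate metabolism, had 39.5 and 17.7. The other 3 lower ones were ALDH1L2 and the amino acid transporter genes SLC7A1 and SLC38A2. The higher ones were ATF3, with a log2 ratio of 0.71, and SESN2, with 0.59. Both had low levels, with an FPKM of 0.773 in tdTom cells against 1.27 in TTP-tdTom cells for ATF3. SESN2 had 2.61 and 3.93. ATF3 passed the FPKM minimum only through the TTP-tdTom group. ATF4 itself was at -0.20, in a row it shares with SMCR7L, and ASNS, the asparagine synthetase that is a standard readout of the response, was at -0.14. The median of the list, -0.22, was close to that of all symbols.

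**Figure D5:**
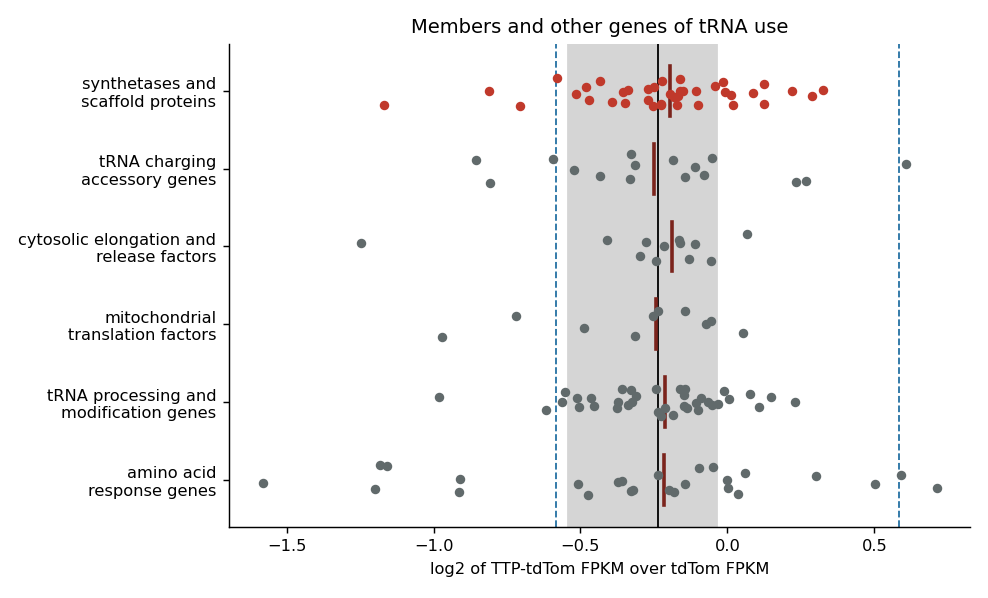
Log2 ratio of TTP-tdTom FPKM over tdTom FPKM (x axis) for the 39 members (red) and the genes of 5 related lists (grey) that passed the FPKM minimum, with list medians as dark red bars. The grey band is the 25th to 75th percentile of all symbols and the dashed blue lines mark a ratio of 1.5, and every list's median lies within that band.

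Further rows of the table carry member symbols. GARS, VARS, AARS2, NARS2 and LARS2 had 8 such rows in all, none above 3.03 FPKM. The further row of VARS was listed at 0 in tdTom cells against 3.03 in TTP-tdTom cells, beside 48.5 and 41.6 in its main row. LARS2 had 4 further rows, 1 of them listed at 0 in the tdTom group, and their levels in the TTP-tdTom group were between 0.395 and 2.76. With all rows of a symbol summed, LARS2 had a log2 ratio of 0.82 in place of 0.13, whereas DARS, MARS2 and IARS2 had 1 row each and kept their values.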

How the data were processed

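RNA-Seq was performed on 6 samples, 3 per group. Per the labels and methods, the authors aligned strand-specific read pairs with TopHat2 2.0.13 to Hs37D5 (GRCh37 with decoy sequence) and used Cufflinks 2.2.1. The FPKM values deposited by the authors are Cuffdiff output at gene level, 1 per group for 406165 rows, 30202 of them with a gene symbol. Columns with the authors' own fold changes, test statistics, p-values and q-values were not used. With 1 value per group, no test between groups was run here, and no replicate fits. Nothing states that the 3 samples were separate cultures, and while the labels give a target number of read pairs per sample, the depth reached is not in the table.

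Log2 ratios were computed without a pseudocount, on the chosen row per symbol, with a minimum of 1 FPKM in either group. The members and all lists were chosen with earlier results of these data known. Both FPKM values are printed for members past 1.5-fold, the 5 highest, the smallest difference, complex and scaffold genes and same-amino-acid pairs, and the 3 largest ratios of each other list are named. Other genes named there were chosen after their values were seen, and some genes that enter the counts are not reported here by name. Of symbols with a ratio, 85.0% matched a GENCODE release 29 coding transcript with a 3′UTR, by name or older name. Functions were tested on simulated data. Starts are counted from 1. Python 3.11.15, numpy 2.4.6, pandas 2.3.3, scipy 1.17.1 and matplotlib 3.10.9 were used.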

Additional observations from a re-analysis of the deposited data

How the results depend on the processing

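No paired analysis was possible because the deposited table holds 1 value per group, and for the same reason no sample could be left out. After centring on the median log2 ratio of all symbols, -0.23, the number of members past 1.5-fold lower went from 3 to 1, with 14.4% of all symbols lower and 7.42% higher. The medians became 0.041 for the members, 0.012 for the cytosolic enzymes, 0.15 for the mitochondrial enzymes and -0.069 for the complex enzymes. With a log2 difference of 0.32 as the limit, 12 members were lower and 1 higher, and with a ratio of 2, 1 was lower. With all rows of a symbol summed, 1 member, LARS2, was past 1.5-fold higher, beside 7.56% of all symbols. With a minimum of 5 FPKM, which 33 members passed, the median of the mitochondrial enzymes was -0.22, and 26.6% of all symbols were lower and 1.46% higher. With symbols above 0 FPKM in both groups the background was 20% lower and 13.1% higher. Pseudocounts of 0.1 and 1, rescaling to the same FPKM sum and the row with the highest FPKM left the count of members at 3 lower and 0 higher. Chosen after seeing the data, leaving out AARS and AARS2, whose rows are shared, did the same. Also chosen after seeing the data, the 3′UTR of the transcript that carries the RefSeq name of the table again gave 5 members with the heptamer, and r with its GC content was 0.706 over the members. For MARS this 3′UTR has 68 bases, against 2272 in the longest. Its GC content is 30.9%, against 52.6% in the longest, so the GC group of MARS depends on the transcript taken. The 5 groups by GC content above use the longest. Without sample values or counts, and with the authors' test columns left unused, no ratio here was set against its own error.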
